A study of Mus musculus with 2 samples.

Results

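C1q macrophages with few or no UMIs of the resident perivascular markers Cd163, Lyve1 and Folr2 made up 534 of 9596 kept cells in the gingival library of 10% Tet2-/- BMT mice (5.56%, exact 95% binomial interval 5.11 to 6.04) and 542 of 11672 in that of 10% Tet2+/+ BMT mice (4.64%, 4.27 to 5.04), or 1076 of 21268 cells in all. They were chosen by measured counts of unique molecular identifiers (UMIs), each of which stands for 1 captured transcript. A kept cell was a barcode with at least 500 UMIs, at least 250 genes and at most 10% mitochondrial UMIs. Of these, a C1q macrophage had at least 0.4% of its UMIs on C1qa, C1qb and C1qc together, at most 2 UMIs of Cd163, Lyve1 and Folr2, under 3% of its UMIs on S100a8 and S100a9, and at most 1 UMI of Cd3e, Cd3d, Cd3g and Cd79a. The levels of these 12 genes are therefore given as a description and not as findings.

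Both groups of mice had received a bone marrow transplantation (BMT), named in the labels by donor share and Tet2 genotype, and at 12 weeks after it had ligature-induced periodontitis for 5 days, in which a thread tied round a tooth inflames the gum. Per the labels, 10% of the transplant was Tet2-/- in the 10% Tet2-/- BMT group and Tet2+/+ in the 10% Tet2+/+ BMT group. The Tet2 enzyme oxidises methylated cytosine in DNA. Per the protocol, CD45.2+CD11b+ cells were sorted from the gum of 10% Tet2-/- BMT mice and CD45+CD11b+ cells from that of 10% Tet2+/+ BMT mice, while the sample title of the 10% Tet2+/+ BMT library also names CD45.2+CD11b+. The labels give neither the number of mice pooled, nor the sex of donors and recipients, nor how the Tet2 allele was deleted. With 1 library a group there is no measure of how far mice differ. No test was made, and genotype, sort gate and library cannot be told apart. The libraries also differ in the sex-chromosome transcripts of their cells, described below, which cannot be told apart from these either. All intervals are exact 95% intervals that cover counting error only.

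C1qa, C1qb and C1qc encode the chains of C1q, the recognition unit of the classical complement pathway, which tissue macrophages make themselves. In many tissues C1q-rich macrophages carry much MHC class II, lysosomal and lipid-carrier transcript, clear dying cells and present antigen. Those that sit along vessels are known for Cd163, Lyve1 and Folr2, while monocytes that enter inflamed tissue start with Ly6c2 and Ccr2 and lose them as they take on macrophage transcripts.

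The 3 C1q genes lie side by side on the minus strand of chromosome 4 (mm10/GRCm38), with C1qb at 136880129 to 136886187, C1qc at 136889804 to 136893065 and C1qa at 136895917 to 136898803. The 250 bases before the RefSeq start of 5 genes are shown because the C1q genes define these cells, Ccl12 and Cxcl9 were among the genes that varied most from cell to cell in both libraries, and Retnla had the second highest log2 ratio between the libraries among genes of 50 CPM or more. Sequences are from RefSeq on GRCm38.p6, 5′ to 3′ on the gene's strand, and capitals mark matches to 1 of 5 motifs searched on both strands. The RefSeq starts of C1qc and Retnla differ from the GENCODE ones, so that part of each window lies inside the GENCODE gene.
C1qb (chr4:136886201-136886450, minus strand): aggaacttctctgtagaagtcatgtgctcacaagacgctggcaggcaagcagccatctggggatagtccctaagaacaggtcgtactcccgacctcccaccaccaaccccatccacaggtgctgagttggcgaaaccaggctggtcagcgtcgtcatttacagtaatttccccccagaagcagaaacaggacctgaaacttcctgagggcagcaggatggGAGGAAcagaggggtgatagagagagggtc
C1qc (chr4:136892915-136893164, minus strand): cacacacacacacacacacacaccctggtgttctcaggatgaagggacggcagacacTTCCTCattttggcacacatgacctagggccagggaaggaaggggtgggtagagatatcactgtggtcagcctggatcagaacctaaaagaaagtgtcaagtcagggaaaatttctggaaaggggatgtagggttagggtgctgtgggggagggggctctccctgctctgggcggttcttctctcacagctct
Ccl12 (chr11:82101595-82101844, plus strand): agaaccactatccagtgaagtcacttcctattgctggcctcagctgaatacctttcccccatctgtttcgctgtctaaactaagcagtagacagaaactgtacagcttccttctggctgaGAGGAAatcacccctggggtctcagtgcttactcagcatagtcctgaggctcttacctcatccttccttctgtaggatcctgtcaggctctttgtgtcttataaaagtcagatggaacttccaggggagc
Cxcl9 (chr5:92328080-92328329, minus strand): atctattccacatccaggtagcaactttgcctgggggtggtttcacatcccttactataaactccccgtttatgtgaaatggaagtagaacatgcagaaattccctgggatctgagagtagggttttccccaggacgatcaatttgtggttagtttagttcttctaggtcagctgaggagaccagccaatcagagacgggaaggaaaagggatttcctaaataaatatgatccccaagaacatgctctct
Retnla (chr16:48842359-48842608, plus strand): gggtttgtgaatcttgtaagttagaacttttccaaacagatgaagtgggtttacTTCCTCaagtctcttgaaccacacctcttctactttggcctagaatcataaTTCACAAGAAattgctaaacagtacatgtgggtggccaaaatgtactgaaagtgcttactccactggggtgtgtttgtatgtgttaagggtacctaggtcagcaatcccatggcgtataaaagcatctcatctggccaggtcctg
The motifs were GAGGAA (a PU.1-type purine box), TTC and GAA 4 bases apart (a STAT6-type site), TTCNNNGAA (a gamma-activated site), TGANTCA (an AP-1 site) and GGGA and TTTCC 1 base apart (an NF-kB-type site). GAGGAA lay 30 bases before the start of C1qb, 130 before that of Ccl12, and on the other strand 193 before that of C1qc and 196 before that of Retnla. The STAT6-type site matched 145 bases before the Retnla start, and none of the 5 motifs matched in the Cxcl9 window. Of 32851 promoter windows of this length, 23.3% hold the purine box, 5.85% the STAT6-type site, 7.02% the gamma-activated site, 6.75% the AP-1 site and 0.356% the NF-kB-type site. A match describes these letters only and is neither a shown binding site nor a cause.

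The cells carried Apoe, Ms4a7 and Cx3cr1, the markers of their name that the rule did not use. Transcripts of C1qa, C1qb and C1qc were required by the rule, so their levels do not bear on the name. In sums over all C1q macrophages, levels in CPM (a gene's UMIs scaled by all UMIs of its class and library) of C1qa were 6118 CPM in 10% Tet2-/- BMT and 5744 CPM in 10% Tet2+/+ BMT, of C1qb 5779 and 5380 CPM, and of C1qc 3299 and 3143 CPM. Apoe, the carrier of cholesterol and other lipids, was the highest of all named genes at 41290 CPM in 10% Tet2-/- BMT and 36627 CPM in 10% Tet2+/+ BMT. Ms4a7, a membrane protein of mature macrophages, was at 1462 CPM in 10% Tet2-/- BMT and 1193 CPM in 10% Tet2+/+ BMT, and Cx3cr1, the receptor for fractalkine, at 919 and 745 CPM. To compare shares across depths, 459 cells of 10% Tet2-/- BMT and 401 of 10% Tet2+/+ BMT were thinned to 2000 UMIs each, which left out 75 (14%) and 141 (26%) shallower cells. Then 83.7% (80 to 86.9) of C1q macrophages of 10% Tet2-/- BMT and 72.8% (68.2 to 77.1) of those of 10% Tet2+/+ BMT had a UMI of Ms4a7. Neutrophils, which should lack it, had one in 2.87% and 2.69% of cells thinned alike. For Cx3cr1 the shares were 71% (66.6 to 75.1) in 10% Tet2-/- BMT and 62.3% (57.4 to 67.1) in 10% Tet2+/+ BMT, against 3.02% and 2.84% of neutrophils. Unthinned, Ms4a7 was seen in 89% and 81.4% of C1q macrophages and Cx3cr1 in 85% and 69.6%.

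Other macrophage genes that the rule did not use were widespread too. Csf1r, the receptor for the macrophage growth factor Csf1, was found in 79.1% of thinned C1q macrophages of 10% Tet2-/- BMT and 72.1% of those of 10% Tet2+/+ BMT, against 13.6% and 14.8% of neutrophils. Trem2, a lipid-sensing receptor, was found in 68.6% and 59.1%, against 2.52% and 2.05%. The antigen-presenting chain H2-Aa reached 95.4% and 95.5%, against 20.6% and 25.7% of neutrophils. Microglial-type genes were rarer. Tmem119 was found in 15.5% of thinned cells of 10% Tet2-/- BMT and 21.7% of those of 10% Tet2+/+ BMT, against 0.309% and 0.366% of neutrophils, and Sall1 in 0% and 0.249%. Cd207 of Langerhans cells was found in 0.218% and 0.249%, and Timd4, of long-lived resident macrophages, in none. Ly6c2, of classical monocytes, was found in 4.79% and 6.48%, below its share in neutrophils of 40.2% and 32.6%, so these shares are not read as expression. Ccr2, the receptor that brings monocytes into tissue, was found in 27.5% of cells of 10% Tet2-/- BMT and 28.2% of those of 10% Tet2+/+ BMT, against 4.6% and 3.97% of neutrophils.

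**Figure D1:**
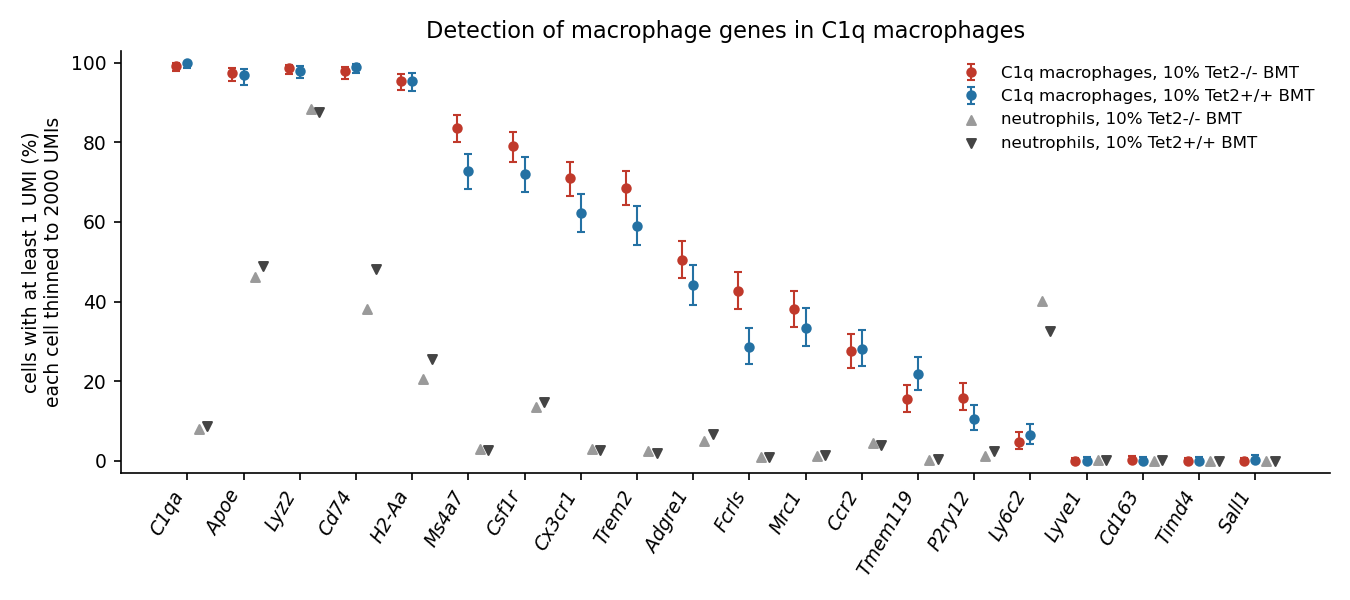
Percent of C1q macrophages (circles, with exact 95% intervals) and of neutrophils (triangles) with a UMI (vertical axis) of each gene (horizontal axis), after thinning each cell to 2000 UMIs, in the 10% Tet2-/- BMT and 10% Tet2+/+ BMT libraries. C1qa, Apoe, H2-Aa and Cd74 are near the full share, Ms4a7, Csf1r and Cx3cr1 lie between 62.3% and 83.7%, and Cd163, Timd4 and Lyve1 are at or near 0. The rule that chose the cells set the shares of C1qa, Cd163 and Lyve1.

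The libraries held 93919724 UMIs for 10% Tet2-/- BMT and 100782700 for 10% Tet2+/+ BMT, and shared 31 kept barcodes. C1q macrophages had a median of 10326 UMIs and 2589 genes in 10% Tet2-/- BMT and of 7790 UMIs and 2233 genes in 10% Tet2+/+ BMT. Cells under 2000 UMIs had C1qa at 5907 CPM in 10% Tet2-/- BMT and 5709 CPM in 10% Tet2+/+ BMT, but the rule requires C1q transcripts. Macrophage genes outside the rule were lower in these shallow cells than in cells at or above 2000 UMIs. Cx3cr1 was at 579 and 280 CPM against 924 and 760 CPM, and Csf1r at 450 and 641 CPM against 808 and 743 CPM. Adgre1 was at 232 and 232 CPM against 378 and 353 CPM. The shallow cells carried S100a8 at 4234 and 5955 CPM, while cells at or above 2000 UMIs had it at 1129 and 1827 CPM. The profile of free RNA came from barcodes of 1 to 50 UMIs, and 13.1% of it in each library was S100a8 and S100a9. If all S100a8 and S100a9 in C1q macrophages were free RNA, free RNA would give 2.2% of their UMIs in 10% Tet2-/- BMT and 3.48% in 10% Tet2+/+ BMT. The rule limits both genes, so the choice of cells bounds these values, and they are no independent measure. Summed over 10 neutrophil markers, C1q macrophages had 3459 CPM in 10% Tet2-/- BMT and 5344 CPM in 10% Tet2+/+ BMT, all 10 at 10 CPM or more, against 266799 and 277474 CPM in neutrophils. T cell markers summed to 17.7 and 20.1 CPM with Cd8a at 0, fibroblast markers to 10.2 and 5.4 CPM with Pdgfra at 0, and endothelial markers to 8.33 and 15.1 CPM with Emcn at 0. Near the rule's edges, 498 of the 534 cells of 10% Tet2-/- BMT and 507 of the 542 of 10% Tet2+/+ BMT had no UMI of Cd163, Lyve1 and Folr2, 11 and 8 cells had the highest allowed count of 2, and 8 and 7 cells lay just outside it at 3. C1q shares of 0.4% to 0.5% were held by 13 and 36 cells just inside the rule, and shares of 0.3% to 0.4% by 28 and 37 cells just outside.

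Tet2 itself was at 52.7 CPM (304 UMIs) in C1q macrophages of 10% Tet2-/- BMT and 57.0 CPM (264 UMIs) in those of 10% Tet2+/+ BMT. The 3′ assay counts transcript ends and the deleted exons are not given in the sources used here, so this level does not check the genotype.

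After Apoe, the highest named genes were Cd74, the MHC class II invariant chain, at 25792 CPM in 10% Tet2-/- BMT and 29192 CPM in 10% Tet2+/+ BMT, and the nuclear RNA Malat1 at 22368 and 23705 CPM. The class II chains H2-Aa, H2-Ab1 and H2-Eb1 stood at 10557, 9765 and 9434 CPM in 10% Tet2-/- BMT and at 11041, 10300 and 10482 CPM in 10% Tet2+/+ BMT. The actin-binding Tmsb4x was at 15848 CPM in 10% Tet2-/- BMT and 14983 CPM in 10% Tet2+/+ BMT. Fth1, the ferritin heavy chain, was at 12376 CPM in 10% Tet2-/- BMT and 12287 CPM in 10% Tet2+/+ BMT, Ftl1, the light chain, at 6908 and 6219 CPM, and Lyz2, lysozyme, at 8976 and 9363 CPM. Il1b, the inflammasome-processed cytokine, was at 2832 CPM in 10% Tet2-/- BMT and 2668 CPM in 10% Tet2+/+ BMT, and was found in 75.4% and 75.3% of thinned cells. Neutrophils had it in 85.7% and 87.7%, so the share in C1q macrophages is below that of another cell type in the same sort. Tnf was at 120 CPM in 10% Tet2-/- BMT and 160 CPM in 10% Tet2+/+ BMT. Il6 had 29 UMIs in 10% Tet2-/- BMT, 14 of them in 1 cell, and 1 UMI in 10% Tet2+/+ BMT.

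Ranked by the lower of both libraries' values of variance over mean between cells, Apoe stood first. Among thinned cells the variance over the mean (Fano factor, near 1 for counting noise alone) of Apoe was 42.5 in 10% Tet2-/- BMT and 52.8 in 10% Tet2+/+ BMT, at means of 92 and 80 UMIs per 2000. The median gene had a Fano factor of 1.06 in 10% Tet2-/- BMT and 1.07 in 10% Tet2+/+ BMT. The other genes of highest Fano factor in both libraries were Retnla (87.3 and 25.2), Malat1, Spp1 (57.4 and 20.5), Cd74 (19.2 and 22.3), Cxcl9 (23.9 and 17.8), Ccl8 (13.9 and 17.5), Ccl4, Cxcl2 (24.2 and 11.9), Lyz2, Il1b and Ccl12 (22.7 and 11). Chemokines, the ligands that draw other leukocytes, thus made up 5 of these 12 genes. Cxcl9, which attracts Cxcr3-bearing T cells, was found in 9.8% of thinned cells of 10% Tet2-/- BMT and 13% of those of 10% Tet2+/+ BMT and reached 47 and 42 UMIs in 1 cell. Ccl8 was found in 20.5% and 23.4% of cells, and Ccl12, a ligand of Ccr2, in 37.7% and 40.6%. Thinning to 1000 UMIs gave the same 12 genes.

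Spearman's rho with Apoe over 459 cells of 10% Tet2-/- BMT and 401 of 10% Tet2+/+ BMT, among 1001 genes, was highest for Ctsd, a lysosomal protease (0.58 and 0.46), Itm2b (0.45 and 0.55), Cst3 (0.52 and 0.44) and Trem2 (0.5 and 0.44). It was lowest for the actin Actb (-0.45 and -0.43), S100a4 (-0.46 and -0.42), Crip1 (-0.4 and -0.49) and the actin Actg1 (-0.39 and -0.4), and seventh from the lowest for Ccr2 (-0.36 and -0.44). Ccr2 itself was nearest to S100a4 (0.43 and 0.44), Crip1 (0.33 and 0.41) and Anxa2 (0.33 and 0.38), and Apoe was its lowest gene. Cd74 was nearest to the class II chain H2-Aa (0.85 and 0.84). These values describe cells that share a library and a fixed depth. Per cell, the 4 main class II genes took a median of 5.84% of UMIs in 10% Tet2-/- BMT and 6.5% in 10% Tet2+/+ BMT, with 5% of cells at or below 0.372% and 0.353% and 5% at or above 11.3% and 11.7%.

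Levels were set beside those of resident macrophages, which fit the same rule but have 3 or more UMIs of Cd163, Lyve1 and Folr2 (39 cells of 10% Tet2-/- BMT and 29 of 10% Tet2+/+ BMT). Resident macrophages had medians of 13438 and 14338 UMIs, against 10326 and 7790 in C1q macrophages. As the classes are split by a count of UMIs, shallow cells of resident type can fall among the C1q macrophages. A gene was called higher or lower where its log2 CPM ratio with a pseudocount of 10 CPM passed 1.5-fold in both libraries, among genes of 50 CPM or more and 100 UMIs or more. Of 2754 genes, 127 (4.61%) were called higher and 209 (7.59%) lower in C1q macrophages. With trimmed-mean (TMM) scaling, which moved the log2 ratios up by 0.22 in 10% Tet2-/- BMT and 0.25 in 10% Tet2+/+ BMT, 225 were called higher and 128 lower, so the balance of directions depends on the scaling. MHC class II genes were higher under both scalings, with 11 of 12 past 1.5-fold in 10% Tet2-/- BMT and 8 of 12 in 10% Tet2+/+ BMT by CPM, against 7.46% and 7.22% of all genes measured, and 11 and 10 of 12 by TMM. The list medians were 0.98 and 1.10 on the log2 scale by CPM, against -0.13 and -0.14 for all genes. Microglial-type genes were higher for 6 of 15 in 10% Tet2-/- BMT and 11 of 16 in 10% Tet2+/+ BMT, against the same shares. They were lower for 2 and 1, against 11.9% and 16.2% of all genes.

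Named genes give the contrast its content. Cxcl9 stood at 546 CPM in C1q macrophages of 10% Tet2-/- BMT and 494 CPM in those of 10% Tet2+/+ BMT, against 3.31 and 48.8 CPM in resident macrophages, with 75 and 90 C1q macrophages carrying a UMI of it. Pmepa1, a target and feedback inhibitor of TGF-beta signalling, was at 653 and 569 CPM against 117 and 95.2 CPM, and the receptor chain Tgfbr1 at 321 and 350 CPM against 56.2 and 70.8 CPM. Both transcripts of the TGF-beta pathway were thus called higher in both libraries. Tmem119 was at 98.9 and 128 CPM against 14.9 and 19.5 CPM, Olfml3 at 134 and 145 CPM against 33.1 and 36.6 CPM, and the integrin Itgax at 95.4 and 117 CPM against 6.61 and 26.9 CPM. H2-M2, a non-classical class I gene, was at 130 and 64.2 CPM and at 0 UMIs in both sets of resident macrophages. Acp5, an acid phosphatase known from osteoclasts, was at 204 and 153 CPM against 28.1 and 31.7 CPM, with 33.9% of its UMIs in 10% Tet2-/- BMT in 1 cell.

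Genes of resident macrophages that the rule did not name were lower. Of the other tissue-resident genes, 17 of 17 in 10% Tet2-/- BMT and 17 of 18 in 10% Tet2+/+ BMT passed 1.5-fold downward, against 11.9% and 16.2% of all genes, with medians of -2.15 and -2.25, and 16 of 17 and 17 of 18 did under TMM. The lectin Cd209f was at 5.38 CPM in C1q macrophages of 10% Tet2-/- BMT and 5.62 CPM in those of 10% Tet2+/+ BMT, against 473 and 371 CPM in resident macrophages. Mrc1, the mannose receptor, was at 334 and 269 CPM against 1390 and 1011 CPM, and Pltp, which transfers phospholipids, at 232 and 277 CPM against 1298 and 1616 CPM. The mannose receptor was therefore lower but not missing. G2/M phase genes were lower for 14 of 15 in 10% Tet2-/- BMT and 11 of 14 in 10% Tet2+/+ BMT, at medians of -1.28 and -0.86. The shares of thinned cells with a UMI did not all follow. Top2a was found in 3.7% and 2.99% of C1q macrophages, against 2.56% of 39 and 3.7% of 27 resident macrophages. Mki67 was found in 1.96% and 3.49% of C1q macrophages, against 5.13% and 3.7%. The resident classes are small, so single cells carry weight in all these levels.

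Against monocytes (893 cells of 10% Tet2-/- BMT, 9.31% of kept cells, and 804 of 10% Tet2+/+ BMT, 6.89%), 386 of 3012 genes (12.8%) were called higher and 689 (22.9%) lower. Ccl12 was at 942 CPM in C1q macrophages of 10% Tet2-/- BMT and 919 CPM in those of 10% Tet2+/+ BMT, against 9.04 and 3.99 CPM in monocytes, and Ccl8 at 597 and 782 CPM against 3.34 and 7.72 CPM. Cd81, a tetraspanin, was at 781 and 671 CPM against 8.97 and 11.1 CPM. The lysosomal list was higher for 17 of 22 genes in 10% Tet2-/- BMT and 14 of 22 in 10% Tet2+/+ BMT, against 12.2% and 11.4% of all genes measured, and the microglial-type list for 14 of 15 and 15 of 16. All 15 measured recruitment genes were lower in both libraries, against 20.6% and 16% of all genes, but Ly6c2 and Ccr2 among them were fixed by how monocytes were chosen. Chil3, a chitinase-like protein of monocytes, was at 48.4 and 56.8 CPM against 2249 and 1010 CPM, and Plac8 at 135 and 234 CPM against 2540 and 2961 CPM. All 15 G2/M phase genes were lower as well. Mki67, of dividing cells, was at 26.2 and 34.4 CPM against 332 and 183 CPM, and was found in 18.9% and 9.62% of thinned monocytes. Prtn3, a primary granule protease, was at 5.2 and 14 CPM against 821 and 315 CPM. Elane, another, was at 3.3 and 5.4 CPM against 434 and 154 CPM. The monocyte class thus held dividing cells and carried primary granule transcripts, so this contrast is not with mature monocytes alone.

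Between the libraries, C1q macrophages differed past 1.5-fold in 63 of 2712 eligible genes (2.32%). Of these, 17 (0.627%) were called higher and 46 (1.7%) lower in 10% Tet2-/- BMT than in 10% Tet2+/+ BMT, and the median of all genes at 10 CPM or more was -0.02 on the log2 scale. Genes of monocytes entering tissue were lower in 10% Tet2-/- BMT, and a few genes of settled macrophages were higher. Of 26 type I interferon-stimulated genes, 5 were lower too, against 1.13% of all 7606 genes at 10 CPM or more. Without the cell of highest count for each gene in each library, 14 of the 17 and 39 of the 46 were still called.

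Fn1 and Ly6c2 had the lowest log2 ratios, at -1.84 and -1.81. Fn1, fibronectin, was at 61.1 CPM in C1q macrophages of 10% Tet2-/- BMT and 244 CPM in those of 10% Tet2+/+ BMT, in 60 and 79 cells, a 4-fold lower level (3.54 to 4.52). Ly6c2 was at 37.3 CPM in 10% Tet2-/- BMT and 155 CPM in 10% Tet2+/+ BMT (4.17-fold lower, 3.57 to 4.87) in 86 and 80 cells. Haptoglobin, Hp, was at 48.9 CPM in 10% Tet2-/- BMT and 112 CPM in 10% Tet2+/+ BMT, and Crip1, a LIM-domain protein, at 521 and 1066 CPM (2.04-fold lower, 1.95 to 2.14). Of the 15 measured genes in the recruitment list, 8 passed 1.5-fold downward and none upward, against 1.13% and 0.473% of all 7606 genes at 10 CPM or more, and the list's median was -0.67. The list also held genes at like levels, with Ccr2 at 346 CPM in 10% Tet2-/- BMT and 427 CPM in 10% Tet2+/+ BMT and S100a4 at 476 and 454 CPM. Monocytes had Fn1 at 1606 CPM in 10% Tet2-/- BMT and 1121 CPM in 10% Tet2+/+ BMT and Ly6c2 at 1933 and 1645 CPM. Summed classical monocyte markers were at 594 CPM in C1q macrophages of 10% Tet2-/- BMT and 920 CPM in those of 10% Tet2+/+ BMT, and summed neutrophil markers at 3459 and 5344 CPM. Neutrophils themselves had Hp at 1023 and 1714 CPM and Ly6c2 at 676 and 518 CPM. The part of either marker set in these differences was not tested.

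Other genes were lower in 10% Tet2-/- BMT as well. Ly6a was at 82.9 CPM in 10% Tet2-/- BMT and 213 CPM in 10% Tet2+/+ BMT (2.57-fold lower, 2.30 to 2.87), and it was also lower in monocytes, at 27.9 and 88.4 CPM. Slfn1, of the Schlafen family, was at 28.6 CPM in 10% Tet2-/- BMT and 77.4 CPM in 10% Tet2+/+ BMT, with 75.1 and 151 CPM in monocytes, and Ecm1 at 27.8 and 79.1 CPM. The chemokine Ccl9 was at 139 CPM in 10% Tet2-/- BMT and 290 CPM in 10% Tet2+/+ BMT (2.10-fold lower, 1.92 to 2.29), and Ccl6 at 273 and 456 CPM. Ccl17, a ligand of Ccr4, was at 15.4 and 68.5 CPM, but its 5 highest cells held 79.8% and 96.5% of its UMIs. Without the highest cell of each library it was at 8.5 and 39.5 CPM (log2 -1.42). It was then not called, as both levels were under the 50 CPM limit. Type I interferon-stimulated genes had 5 of 26 past 1.5-fold downward and none upward, against 1.13% and 0.473% of all 7606 genes at 10 CPM or more. The median of these 26 genes was -0.43. Among the 5 were Ifit2 at 39.7 CPM in 10% Tet2-/- BMT and 83.2 CPM in 10% Tet2+/+ BMT, Oasl2 at 49.1 and 84.3 CPM and Rsad2 at 36.1 and 71.3 CPM. Rsad2 was not called without its highest cell. Per cell, the list took a median of 0.143% of UMIs in 10% Tet2-/- BMT and 0.147% in 10% Tet2+/+ BMT, and 0.616% and 0.704% at the 95th percentile. The enzymes Ch25h, which makes 25-hydroxycholesterol, and Ltc4s, of leukotriene synthesis, were at 25.3 and 30.2 CPM in 10% Tet2-/- BMT and at 58.3 and 62.2 CPM in 10% Tet2+/+ BMT.

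Among the genes that were higher in 10% Tet2-/- BMT, several are known from settled or microglial-type macrophages. Fcrls, a scavenger-type relative of the Fc receptors, was at 455 CPM in 10% Tet2-/- BMT and 257 CPM in 10% Tet2+/+ BMT (1.77-fold, 1.65 to 1.89), and in 42.7% (38.1 to 47.4) and 28.7% (24.3 to 33.4) of thinned cells. Gpr34, a lysophosphatidylserine receptor, was at 160 CPM in 10% Tet2-/- BMT and 99.6 CPM in 10% Tet2+/+ BMT (1.61-fold, 1.43 to 1.80). Gas6, the bridging ligand by which Axl and Mertk bind dying cells, was at 70.2 CPM in 10% Tet2-/- BMT and 39.8 CPM in 10% Tet2+/+ BMT (1.77-fold, 1.48 to 2.11). Pf4, the platelet chemokine that some tissue macrophages also carry, was at 545 CPM in 10% Tet2-/- BMT and 359 CPM in 10% Tet2+/+ BMT. The other tissue-resident list had 5 of 13 genes past 1.5-fold upward and 1 downward, at a median of 0.31. Of all 7606 genes at 10 CPM or more, 0.473% passed upward and 1.13% downward. The microglial-type list had 2 upward and 2 downward of 16 against the same shares, at a median of 0.03. Tmem119 was at 98.9 CPM in 10% Tet2-/- BMT and 128 CPM in 10% Tet2+/+ BMT. Gdf3, a ligand of the TGF-beta family, was at 72.8 CPM in 10% Tet2-/- BMT and 29.8 CPM in 10% Tet2+/+ BMT (2.44-fold, 2.01 to 2.98) in 86 and 38 cells, and H2-M2 at 130 and 64.2 CPM in 81 and 43 cells. Gadd45g, a stress-induced gene, was at 145 and 70.0 CPM, and Tnip3, an inhibitor of NF-kB signalling, at 144 and 83.0 CPM, with 65.9 and 36 CPM in monocytes.

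Some of the highest ratios rested wholly or partly on 1 cell. Ctsk, the collagen-degrading protease of osteoclasts, was at 80.0 CPM in 10% Tet2-/- BMT and 4.97 CPM in 10% Tet2+/+ BMT, but 97.6% of its UMIs in 10% Tet2-/- BMT came from 1 cell, and without the highest cell of each library it was at 1.91 and 4.32 CPM. Retnla, a resistin-like protein of alternatively activated macrophages, was at 450 CPM in 10% Tet2-/- BMT and 116 CPM in 10% Tet2+/+ BMT with 70% and 59.4% of its UMIs in 1 cell. Without those cells it was at 135 and 47.3 CPM and was still called (log2 1.34). Only 20 cells of 10% Tet2-/- BMT and 37 of 10% Tet2+/+ BMT had a UMI of it.

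**Figure D2:**
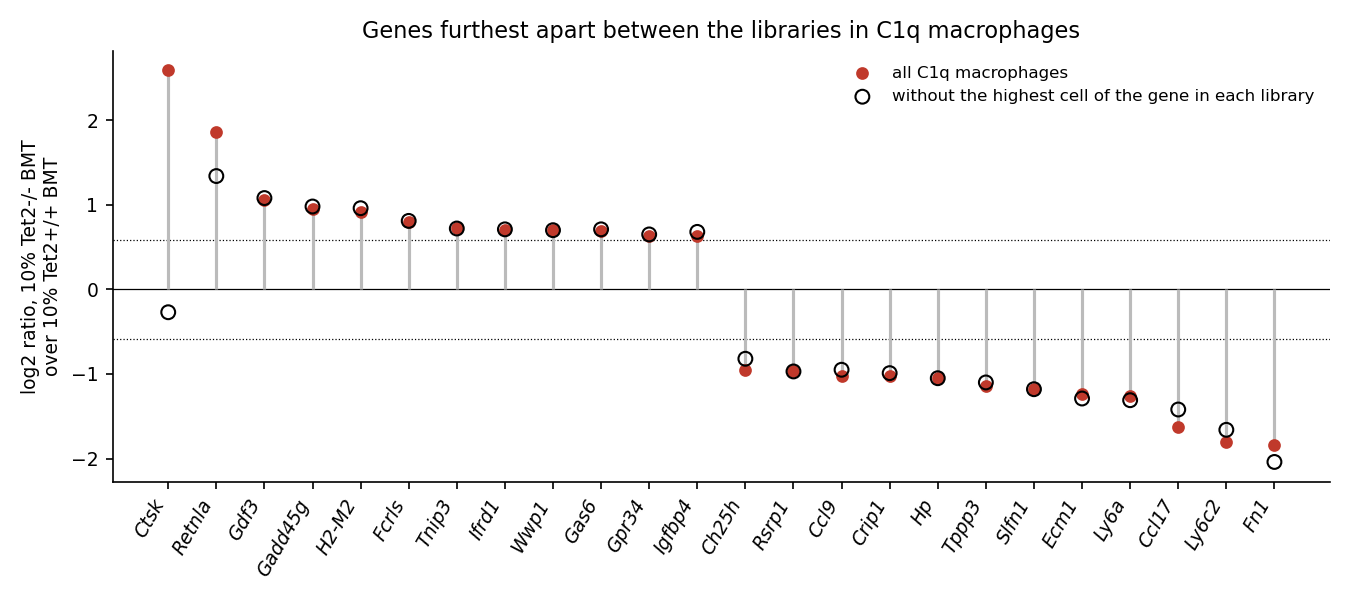
Log2 CPM ratio (pseudocount 10 CPM, vertical axis) of 10% Tet2-/- BMT over 10% Tet2+/+ BMT in C1q macrophages for the 24 named genes (horizontal axis). Filled points are for all cells and open points without each gene's highest cell in each library. Dotted lines mark 1.5-fold. Fn1 and Ly6c2 are the lowest at -1.84 and -1.81, and Ctsk moves to -0.27 when 1 cell is left out.

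No MHC class II gene of 12 measured passed 1.5-fold in either direction (median -0.07), nor did any of 15 class I genes (-0.18), 13 complement genes (-0.11), 16 lipid-handling genes (-0.24), 10 inflammatory cytokine genes (-0.08), 20 oxidative phosphorylation genes (-0.06) or 22 immediate early genes (0.17). Of all 7606 genes at 10 CPM or more, 0.473% passed upward and 1.13% downward. Lists of this size with none past the limit are near that share and are not read as particular to these genes. The NF-kB list had Tnip3 alone of 18. Of the CC chemokines, 4 of 11 were lower and none higher (median -0.37). Ccl3 was at 939 CPM in 10% Tet2-/- BMT and 1004 CPM in 10% Tet2+/+ BMT, Ccl4 at 2115 and 1866 CPM, Ccl8 at 597 and 782 CPM, Ccl12 at 942 and 919 CPM, Cxcl9 at 546 and 494 CPM and Cxcl2 at 2067 and 1464 CPM, and none of these passed 1.5-fold. With 1 library a group, such closeness describes these libraries only.

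Transcripts of the sex chromosomes, which the rule did not use, split the C1q macrophages of 10% Tet2-/- BMT. Xist, the RNA of the inactive X chromosome, was detected without Y-linked transcripts in 220 of 534 cells (41.2%, 37 to 45.5). UMIs of Uty, Kdm5d, Eif2s3y or Ddx3y, which lie on the Y chromosome, were detected without Xist in 136 cells (25.5%, 21.8 to 29.4). Both were found in 26 cells (4.87%) and neither in 152 (28.5%), whose median of 2311 UMIs was below the 11827 of Xist-carrying and the 11388 of Y-carrying cells. In 10% Tet2+/+ BMT, no C1q macrophage of 542 had a UMI of Xist (exact upper limit 0.678% of cells with a UMI, which does not bound the cells expressing it), 274 (50.6%, 46.3 to 54.8) carried Y-linked transcripts and 268 (49.4%) neither. Shares after thinning, in which fewer Y-linked transcripts are caught, were 39.9% Xist-carrying and 11.1% Y-carrying in 10% Tet2-/- BMT and 27.4% Y-carrying in 10% Tet2+/+ BMT.

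Monocytes of the 10% Tet2-/- BMT library had almost no Y-carrying cells. There, 828 of 893 monocytes (92.7%, 90.8 to 94.3) carried Xist and 12 (1.34%, 0.696 to 2.34) Y-linked transcripts. Resident macrophages, like the C1q macrophages, held both kinds, with 19 of 39 cells (48.7%) carrying Xist and 11 (28.2%) Y-linked transcripts. As a level, Y-linked transcripts in C1q macrophages were at 68.2 CPM in 10% Tet2-/- BMT and 145 CPM in 10% Tet2+/+ BMT, so 10% Tet2-/- BMT stood at 46.9% (41.3 to 53.2) of 10% Tet2+/+ BMT. The same percent was 30.3% (19.6 to 46) in resident macrophages, 9.81% (9.09 to 10.6) in neutrophils and 2.57% (1.91 to 3.39) in monocytes. These intervals cover the counting error of UMIs summed over cells of 1 library per group, and the classes were not tested against each other. The labels do not say whether donors and recipients differed in sex, so the origin of Xist-carrying and Y-carrying cells was not tested.

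**Figure D3:**
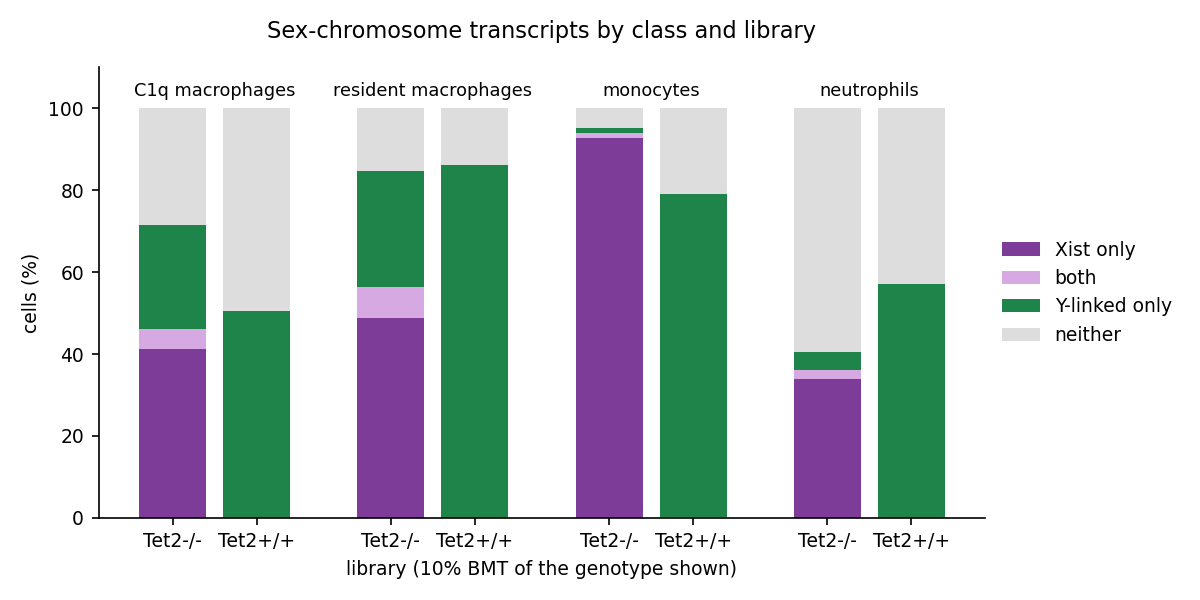
Percent of cells (vertical axis) that carried UMIs of Xist only, of both, of Y-linked genes only or of neither, by cell class and library. In 10% Tet2-/- BMT, Y-linked transcripts alone were found in 25.5% of C1q macrophages and 1.34% of monocytes, and no C1q macrophage of 10% Tet2+/+ BMT carried Xist.

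Within the 10% Tet2-/- BMT library, Xist-carrying and Y-carrying C1q macrophages differed past 1.5-fold in 143 of 2732 eligible genes (5.23%). Of these, 87 (3.18%) were called higher and 56 (2.05%) lower in Xist-carrying cells, and 73 and 41 of these were still called without each gene's highest cell. Recruitment genes were higher in Xist-carrying cells, while Apoe, 2 of 21 lysosomal genes, 3 of 15 microglial-type genes and 6 of 11 CC chemokines were lower there, against 2.09% of all genes at 10 CPM or more. Both sets come from 1 library, so sort, preparation and sequencing were shared. Cells of 1 library are not replicates, and no test was made. Sex of the cells and any difference in their origin cannot be told apart in this contrast.

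Recruitment genes gave the clearest group. Of 13 measured, 10 were higher in Xist-carrying cells and none lower, against 2.98% and 2.09% of all 7690 genes, with a list median of 1.00. Ccr2 was at 506 CPM in Xist-carrying and 150 CPM in Y-carrying cells of 10% Tet2-/- BMT (3.38-fold, 2.95 to 3.88), and at 468 CPM in Y-carrying cells of 10% Tet2+/+ BMT. After thinning, Ccr2 was found in 41.1% (34.5 to 47.9) of 219 Xist-carrying cells, 11.9% (6.93 to 18.5) of 135 Y-carrying cells of 10% Tet2-/- BMT and 30.8% (25.3 to 36.8) of 263 Y-carrying cells of 10% Tet2+/+ BMT. The Xist-carrying cells and the Y-carrying cells of 10% Tet2+/+ BMT were thus closer to each other in Ccr2 than either was to the Y-carrying cells of 10% Tet2-/- BMT. S100a4, a calcium-binding protein of motile cells, was at 566, 107 and 507 CPM in the same order, a 5.29-fold difference (4.53 to 6.21) within 10% Tet2-/- BMT. Fn1 was at 98.6, 12.6 and 281 CPM, Crip1 at 713, 219 and 1145 CPM and Ccl9 at 166, 51.7 and 315 CPM. In each of these genes the Y-carrying cells of 10% Tet2-/- BMT were the lowest of the 3. Summed classical monocyte markers followed, at 784, 291 and 1019 CPM. After thinning, S100a4 was found in 26%, 8.89% and 23.6% of cells in the same order. Crip1 was found in 35.6%, 32.6% and 41.1%, and Fn1 in 4.11%, 2.96% and 11%. For Crip1 and Fn1, the shares in Xist-carrying and Y-carrying cells of 10% Tet2-/- BMT were thus closer than the levels.

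Other macrophage genes went either way. Of all genes at 10 CPM or more, 2.98% were higher and 2.09% lower in Xist-carrying cells. The tissue-resident list had 3 genes higher and 3 lower of 13 there (median -0.18), with Mgl2 at 168 and 91.4 CPM in Xist-carrying and Y-carrying cells of 10% Tet2-/- BMT. The lipid-handling list had 2 and 2 of 15 (median -0.01). The lysosomal list had none higher and 2 lower of 21 (median -0.25). Apoe was at 34213 CPM in Xist-carrying and 53111 CPM in Y-carrying cells of 10% Tet2-/- BMT (1.55-fold lower) and 34850 CPM in Y-carrying cells of 10% Tet2+/+ BMT. Ctsd, the lysosomal protease, was at 1724, 2819 and 1563 CPM, Gas6 at 41.9, 95.6 and 36.7 CPM and Igf1, a growth factor of resident macrophages, at 42.6, 113 and 49.6 CPM. In these 4 genes the Y-carrying cells of 10% Tet2-/- BMT were the highest of the 3. Olfml3, a microglial-type gene, was at 95.9, 203 and 135 CPM, and was found in 15.1%, 33.3% and 24.3% of thinned cells. The adhesion molecule Cadm1 was at 30.2, 126 and 75.8 CPM (4.18-fold lower in Xist-carrying cells, 3.25 to 5.42), and Vcam1, which binds the integrin VLA-4, at 70.1, 191 and 89.5 CPM (2.72-fold lower, 2.28 to 3.25). Cx3cr1 was found in 67.1% (60.5 to 73.3) of Xist-carrying cells, 82.2% (74.7 to 88.3) of Y-carrying cells of 10% Tet2-/- BMT and 64.6% of Y-carrying cells of 10% Tet2+/+ BMT. By contrast, Fcrls was at like levels within 10% Tet2-/- BMT, at 446 and 452 CPM, against 224 CPM in Y-carrying cells of 10% Tet2+/+ BMT.

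Chemokines parted by kind. Of 11 CC chemokines, 6 were lower and 2 higher in Xist-carrying cells, against 2.09% and 2.98% of all genes, with a median of -0.76. Ccl12 was at 561 CPM in Xist-carrying and 1407 CPM in Y-carrying cells of 10% Tet2-/- BMT (2.51-fold lower, 2.35 to 2.67) and 918 CPM in Y-carrying cells of 10% Tet2+/+ BMT. Ccl8 was at 412, 942 and 648 CPM (2.28-fold lower, 2.12 to 2.46), and Ccl7 at 261, 630 and 433 CPM. These ligands of monocyte receptors thus stood highest in the Y-carrying cells of 10% Tet2-/- BMT, which had the lowest Ccr2. The 2 higher ones were Ccl9 and Ccl6, the second at 329, 155 and 467 CPM. Cxcl9 was at 281, 1085 and 529 CPM (3.86-fold lower, 3.55 to 4.19), carried by 26 Xist-carrying and 30 Y-carrying cells of 10% Tet2-/- BMT, and Cxcl10, another ligand of Cxcr3, at 198, 391 and 368 CPM. The interferon-gamma list, which holds both, had 5 of 15 genes lower, none higher and a median of -0.41. Type I interferon-stimulated genes had 2 of 25 higher, none lower and a median of 0.07.

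**Figure D4:**
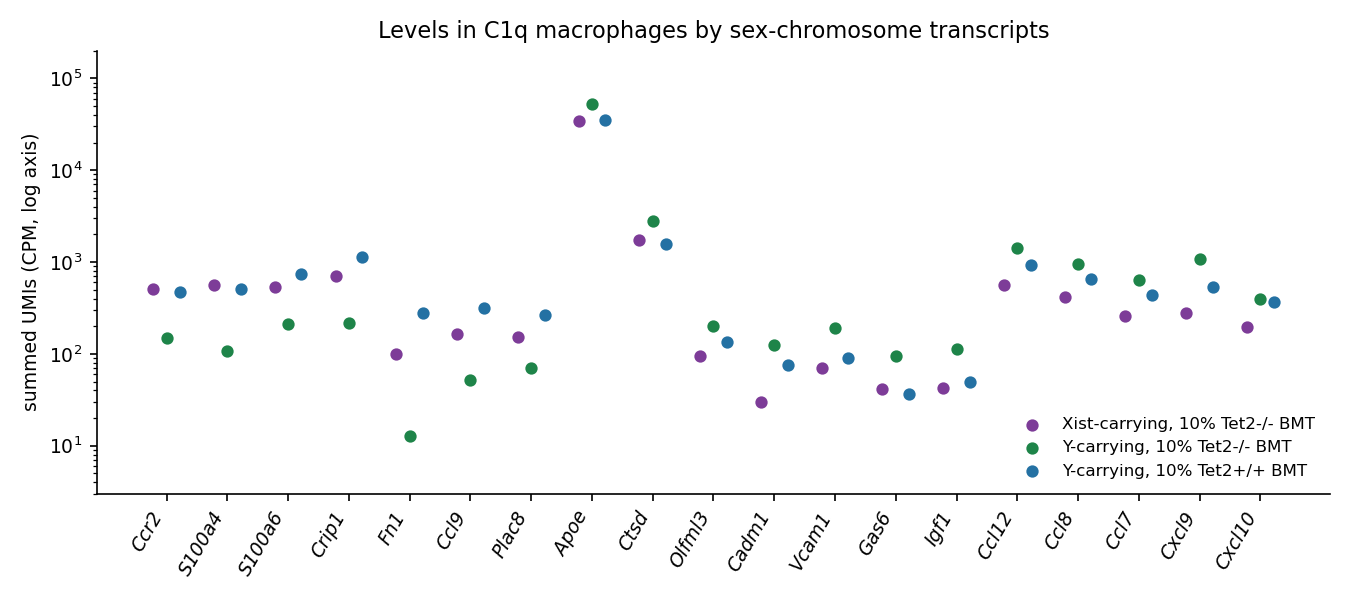
CPM on a log axis of 19 genes in Xist-carrying C1q macrophages of 10% Tet2-/- BMT, Y-carrying C1q macrophages of 10% Tet2-/- BMT and Y-carrying C1q macrophages of 10% Tet2+/+ BMT. The Y-carrying cells of 10% Tet2-/- BMT are lowest for Ccr2, S100a4 and Fn1 and highest for Apoe, Ctsd and Cxcl9.

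Some of the highest ratios in this contrast also rested wholly or partly on 1 cell. Retnla was at 754 CPM in Xist-carrying and 1.2 CPM in Y-carrying cells of 10% Tet2-/- BMT, with 80.7% of the Xist-carrying cells' UMIs in 1 cell and 15 cells carrying it. Spp1, osteopontin, was at 422 and 53.5 CPM with 85.3% in 1 cell, Mup5 at 52.3 and 0.601 CPM with 95.5%, Cxcl3 at 96.9 and 12.6 CPM with 79.9%, and Lyz1 at 70.8 and 9.62 CPM with 74.4%. Without each gene's highest cell, Retnla was still called, at a log2 ratio of 3.96 (146 and 0 CPM). The log2 ratios of Spp1, Mup5, Cxcl3 and Lyz1 were then 0.57, 0.30, 0.83 and 0.66. The remaining named genes lower in Xist-carrying cells were C4b at 10.1 and 58.3 CPM, Syngr1 at 9.05 and 51.1 CPM, Lap3 at 33.2 and 114 CPM, Scgb1c1, a secretoglobin, at 42.6 and 128 CPM, and Pmp22 at 17.1 and 60.7 CPM. Without their highest cells, C4b and Syngr1 kept log2 ratios of -1.70 and -1.68. They were then not called, as their levels in Y-carrying cells fell to 48.7 and 44.5 CPM, under the 50 CPM limit.

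None of 12 MHC class II genes passed 1.5-fold, near the 2.98% of all genes that passed upward and 2.09% downward, and their median was -0.02. Cd74 was at 25818 CPM in Xist-carrying and 26710 CPM in Y-carrying cells of 10% Tet2-/- BMT and 28530 CPM in Y-carrying cells of 10% Tet2+/+ BMT. Glycolysis genes had 4 of 20 higher in Xist-carrying cells and none lower (median 0.33), against 2.98% and 2.09% of all genes, such as Eno1 at 137 and 81.8 CPM and Pgk1 at 100 and 58.9 CPM. Per cell, lipid-handling genes took a median of 4.27% of UMIs in Xist-carrying and 6.06% in Y-carrying cells of 10% Tet2-/- BMT and 3.57% in Y-carrying cells of 10% Tet2+/+ BMT, and lysosomal genes 1.4%, 1.83% and 1.48%. The C1q genes took 1.51%, 1.63% and 1.38%. Mitochondrial UMIs were at medians of 3.97%, 4.77% and 3.54%, and their part in these differences was not tested.

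**Figure D5:**
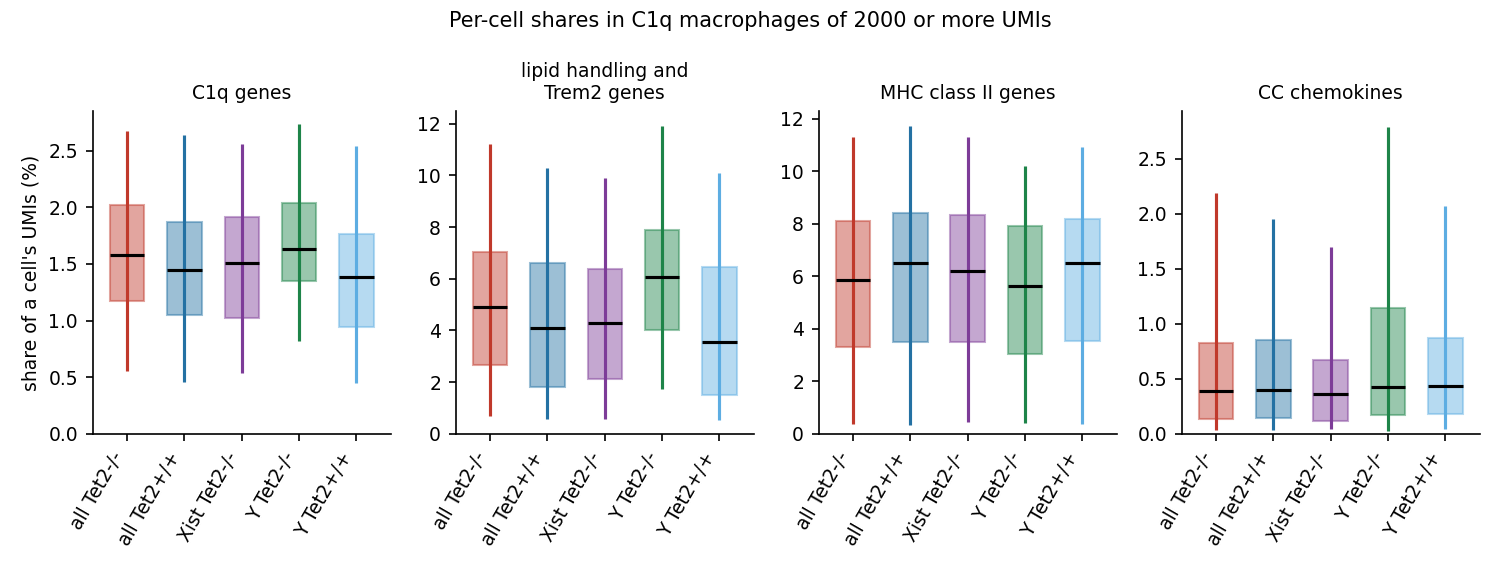
Percent of each cell's UMIs on the C1q genes, lipid-handling genes, 4 MHC class II genes and CC chemokines (boxes show the 25th, 50th and 75th percentiles, whiskers the 5th and 95th) in C1q macrophages of at least 2000 UMIs, for each library and for Xist-carrying and Y-carrying cells. The lipid share is highest in Y-carrying cells of 10% Tet2-/- BMT (median 6.06%), while C1q medians lie between 1.38% and 1.63%.

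Set against Y-carrying C1q macrophages of 10% Tet2+/+ BMT one at a time, the 2 kinds of 10% Tet2-/- BMT cell gave different counts from the same 274 cells. Y-carrying cells of 10% Tet2-/- BMT had 47 of 2786 genes (1.69%) called higher and 139 (4.99%) lower, or 6.68% in all. Xist-carrying cells of 10% Tet2-/- BMT had 30 of 2771 (1.08%) called higher and 74 (2.67%) lower, or 3.75% in all. Over all genes at 10 CPM or more, 1.44% were higher and 4.46% lower in Y-carrying cells of 10% Tet2-/- BMT, and 0.791% and 2.18% in Xist-carrying ones. For the recruitment list, 13 of 15 genes were lower in Y-carrying cells of 10% Tet2-/- BMT (median -1.44), and 8 of 15 in Xist-carrying ones (median -0.59). Type I interferon-stimulated genes had 13 of 26 lower in Y-carrying cells of 10% Tet2-/- BMT and 8 of 26 in Xist-carrying ones, with medians of -0.56 and -0.47. The CC chemokine list had a median of 0.14 in Y-carrying and -0.70 in Xist-carrying cells of 10% Tet2-/- BMT. The medians of the recruitment and interferon lists were thus below 0 for both kinds of 10% Tet2-/- BMT cell, and that of the CC chemokines was not.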

How the data were processed

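Gingival cells of 1 library per group were measured with the Chromium Single Cell 3' kit v3.1. The authors deposited raw counts of UMIs per gene and barcode, empty barcodes included, made with Cell Ranger 6.1.2 on mm10 per the submitters' processing notes; the file headers name Cell Ranger 4. Filters and classes followed the rule in the text. Monocytes had C1q under 0.1% of UMIs, at least 2 UMIs of Ly6c2 and 1 of Ccr2; neutrophils had 3% or more of S100a8 and S100a9. No doublet caller was run, so doublets remain. UMIs were summed per class and library, scaled to CPM, and compared as log2 ratios with a pseudocount of 10 CPM. Lists used genes at 10 CPM or more in either group. Named genes were a fixed set of markers plus the 12 highest and 12 lowest ratios between libraries, 10 each way against other classes, 8 each way for Xist-carrying over Y-carrying cells, 15 by level and 12 by Fano factor, leaving out ribosomal, mitochondrial, immunoglobulin and sex-linked genes; others are examples from 38 gene lists, the figure panels or flagged values. Members and lists were chosen with earlier results of these data known. Alternatives changed scaling, thinning, thresholds and free RNA. The comparison was tested on simulated counts. Python 3.11.15, numpy 2.4.6, scipy 1.17.1, pandas 2.3.3 and matplotlib 3.10.9 were used, with GENCODE M21 for positions.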

Additional observations from a re-analysis of the deposited data

Results flagged for a closer look

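Genes whose ratio between the libraries ran opposite ways in C1q macrophages and in monocytes were set aside; the differences between the classes were not tested. Thbs1, thrombospondin, was at 76 CPM in C1q macrophages of 10% Tet2-/- BMT and 135 CPM in those of 10% Tet2+/+ BMT (log2 -0.75), while monocytes had 1067 and 491 CPM (log2 1.1). Without the highest cell of each library it was at 65.2 and 125 CPM in C1q macrophages. S100a8, a neutrophil transcript that the rule limits, was at 1171 CPM in C1q macrophages of 10% Tet2-/- BMT and 1958 CPM in those of 10% Tet2+/+ BMT (log2 -0.74), while monocytes had 2790 and 1577 CPM (log2 0.82). Ctsk was at 80 and 4.97 CPM in C1q macrophages (log2 2.59) and at 1.6 and 63.6 CPM in monocytes (log2 -2.67), and 1 C1q macrophage of 10% Tet2-/- BMT held 97.6% of its UMIs there.

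Barcodes of 1 to 50 UMIs, which hold no called cell, carried C1qa at 787 CPM in the 10% Tet2-/- BMT library (1821 of 2314836 UMIs) and at 646 CPM in the 10% Tet2+/+ BMT library (1357 of 2101191 UMIs). C1qa was at 131 and 120 CPM in neutrophils of the same libraries.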

How the results depend on the processing

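No paired analysis was possible because each group had 1 library. Between libraries, 17 genes were called higher and 46 lower. These were 26 and 55 with the mean of per-cell CPM, 39 and 61 after thinning, 36 and 86 at a minimum of 10 CPM, 30 and 74 with Xist-carrying against Y-carrying 10% Tet2+/+ BMT cells, and 47 and 139 with Y-carrying cells of both. TMM scaling gave 20 and 39. The share of C1q macrophages, 5.56% in 10% Tet2-/- BMT and 4.64% in 10% Tet2+/+ BMT, was 3.9% and 3.65% at a limit of 5% mitochondrial UMIs, 6.17% and 5.35% with C1q of 0.2% or more, 4.71% and 3.82% with 0.8%, and 4.9% and 3.38% with S100a8 and S100a9 under 1%. For 10% Tet2+/+ BMT it was 4.08% with at least 1000 UMIs and 4.27% without the top 8% of UMIs. Against resident macrophages (127 higher, 209 lower), TMM gave 225 and 128, leaving out each gene's highest cell 195 and 129, and thinning 75 lower. Xist-carrying over Y-carrying counts of 87 and 56 were 39 and 25 after thinning, and Y-carrying shares 11.1% and 27.4%. The cause was not tested. Ccl17 turned to 0.17 (log2) with C1q of 0.2%. Ctsk turned to -0.23 with 0.8%, -0.25 without the top 8%, -0.36 with Xist-carrying against Y-carrying 10% Tet2+/+ BMT cells, -0.2 with Y-carrying cells of both and -0.27 without the highest cell. Retnla turned to -0.07 without the top 8% and -2.56 with Y-carrying cells of both, and Spp1, Xist-carrying over Y-carrying, to -0.41 without the top 8%. The median of the recruitment list stayed between -0.44 and -1.44 in all settings run, and that of the tissue-resident list between 0.16 and 0.37. The settings that left out a gene's highest cell or kept cells of 2000 or more UMIs, and those on Xist-carrying over Y-carrying counts, were chosen after seeing the data. Depth limits genes under about 50 CPM, and free RNA and doublets remain.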

Other observations

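Alternative activation genes were uneven between the libraries. Of 12 measured, 4 were past 1.5-fold upward in C1q macrophages of 10% Tet2-/- BMT and 1 downward, with a median of 0.03, against 0.473% and 1.13% of all 7606 genes at 10 CPM or more. Besides Retnla and Clec10a (42.3 CPM in 10% Tet2-/- BMT and 23.6 CPM in 10% Tet2+/+ BMT), Acod1, which makes itaconate, was at 85.3 and 52.1 CPM and Arg1, arginase, at 22.9 and 10.4 CPM. Arg1 was found in 14 and 12 cells, 1 of which held 79.5% and 54.2% of its UMIs, and Acod1 was not called without its highest cell. Heat shock genes had 3 of 10 lower and none higher in 10% Tet2-/- BMT against the same shares of all genes, such as Hspa1a, an inducible chaperone, at 91.8 CPM in 10% Tet2-/- BMT and 153 CPM in 10% Tet2+/+ BMT. In monocytes Hspa1a was at 38.2 and 110 CPM. Matrix genes had 1 of 15 higher and 4 lower, against 0.473% and 1.13%, among them Mmp12, macrophage elastase, at 41.6 and 75.2 CPM, which was not called without its highest cell.

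Within the 10% Tet2-/- BMT library, several regulators also parted by sex-linked transcripts. Runx1 was at 126 CPM in Xist-carrying and 251 CPM in Y-carrying C1q macrophages, and Irf8 at 253 and 387 CPM, while Bhlhe40 was at 60.7 and 20.4 CPM. The costimulatory ligand Cd86 was at 171 and 292 CPM. Ptgs2, which makes prostaglandin precursors, was at 246 and 117 CPM, and properdin, Cfp, at 149 and 59.5 CPM. Irf8 was not called without its highest cell.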
